A study of Mus musculus with 22 samples.

Results

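The sites described here are stretches of mouse chromatin that were accessible in every hippocampus library of the study and in no frontal cortex library. Chromosomes 1 to 19 of the GRCm38 build were divided into bins of 500 bp, and a bin was called open in a library when a deposited peak interval overlapped it by at least 100 bp. Bins open in all 11 hippocampus libraries and in none of the 11 frontal cortex libraries were kept, and adjoining bins were joined. This gave 14384 sites made of 15685 bins, out of 777821 bins in 406190 stretches that were open in at least 1 library. They were 2.02% of those bins and 8.26% of the 189863 bins open in all 11 hippocampus libraries. The sites were chosen by the openness of bins in these libraries, so these counts are a description.

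Open chromatin was measured by OMNI-ATAC-seq, in which a transposase cuts and tags accessible DNA, in 20 to 30 mg of frozen tissue from 11 adult male wild-type C57BL/6J mice, with 1 hippocampus and 1 frontal cortex library from each animal. All of the animals were in a model of Gulf War Illness: corticosterone, the main rodent glucocorticoid, in drinking water for 7 days, the organophosphate diisopropyl fluorophosphate (DFP) by injection on day 8, and intermittent corticosterone over 5 weeks. Animals given saline were collected at 6 h (2 animals, replicates 2 and 3), and animals given lipopolysaccharide (LPS), a bacterial trigger of inflammation, at 6, 12 and 24 h (3 animals each, replicates 1, 3 and 4). A further baseline animal was excluded by the authors for low read depth, no animal without corticosterone and DFP is in the series, and the 12 and 24 h groups differ from saline in the collection time as well as in LPS, which cannot be told apart.

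Distal open sites often act as enhancers, which differ between cell types far more than promoters do. In the hippocampus, granule cells of the dentate gyrus and pyramidal cells of the CA fields depend on transcription factors such as Prox1 and Zbtb20, and the mineralocorticoid receptor Nr3c2 is known for its strong hippocampal expression. Bulk tissue mixes all of its cell types, so a larger number of cells of 1 type and a more open site in each cell cannot be told apart.

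Few of the sites were at promoters, and 6 promoters that did overlap one are printed here because they join a site to a named gene. They are the RefSeq windows of GRCm38.p6 from 250 bases before to 50 bases after a transcription start. Tdo2, which encodes the tryptophan-degrading enzyme tryptophan 2,3-dioxygenase and is a known dentate granule cell gene, Mndal, one of a cluster of similar interferon-inducible genes between which reads can be misplaced, the noncoding RNA gene A930035F09Rik and Sval1 were among the promoters with the strongest peaks. Lhx9, a LIM homeobox gene, and Nhlh2, a basic helix-loop-helix gene, encode transcription factors, and Nhlh2 was picked for this after its values were seen. Capitals mark matches on either strand to CAGATG, an E-box of neuronal basic helix-loop-helix factors, CAGCTG, a second E-box, TGACTCA, the AP-1 site, TGACGTCA, the cAMP response element, TAATTA, a homeobox core, CTTTGAT, the TCF/LEF site, and TGACAG, the Meis core. A further pair of motifs, the full NFI site and the glucocorticoid response element (GRE), were searched in the same windows, and overlapping matches run together.
Tdo2, chr3:81975679-81975978, minus strand: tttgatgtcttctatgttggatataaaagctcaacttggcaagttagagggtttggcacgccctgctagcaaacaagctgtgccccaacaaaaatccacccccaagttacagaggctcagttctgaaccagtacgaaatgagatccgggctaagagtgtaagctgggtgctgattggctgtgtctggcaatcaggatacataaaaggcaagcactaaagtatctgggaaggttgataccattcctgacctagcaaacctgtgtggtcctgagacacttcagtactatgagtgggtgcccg
Lhx9, chr1:138842395-138842694, minus strand: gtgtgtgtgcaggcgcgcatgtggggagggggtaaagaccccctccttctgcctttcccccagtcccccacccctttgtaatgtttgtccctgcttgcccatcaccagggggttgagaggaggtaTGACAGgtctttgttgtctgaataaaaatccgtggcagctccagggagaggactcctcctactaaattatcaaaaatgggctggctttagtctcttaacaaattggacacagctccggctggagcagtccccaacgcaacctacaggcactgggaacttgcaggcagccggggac
Mndal, chr1:173879909-173880208, minus strand: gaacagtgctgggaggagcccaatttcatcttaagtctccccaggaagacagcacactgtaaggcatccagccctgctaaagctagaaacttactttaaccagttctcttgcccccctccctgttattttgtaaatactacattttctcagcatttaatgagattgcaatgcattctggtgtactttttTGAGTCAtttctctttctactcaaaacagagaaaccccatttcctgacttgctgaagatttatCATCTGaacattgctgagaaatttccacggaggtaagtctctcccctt
A930035F09Rik, chr8:128297352-128297651, minus strand: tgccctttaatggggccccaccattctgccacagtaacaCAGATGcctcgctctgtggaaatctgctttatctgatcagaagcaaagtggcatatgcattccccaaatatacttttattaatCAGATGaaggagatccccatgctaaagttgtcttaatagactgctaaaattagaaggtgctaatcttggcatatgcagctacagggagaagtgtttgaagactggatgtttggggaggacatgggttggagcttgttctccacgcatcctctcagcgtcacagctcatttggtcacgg
Sval1, chr6:41951378-41951677, plus strand: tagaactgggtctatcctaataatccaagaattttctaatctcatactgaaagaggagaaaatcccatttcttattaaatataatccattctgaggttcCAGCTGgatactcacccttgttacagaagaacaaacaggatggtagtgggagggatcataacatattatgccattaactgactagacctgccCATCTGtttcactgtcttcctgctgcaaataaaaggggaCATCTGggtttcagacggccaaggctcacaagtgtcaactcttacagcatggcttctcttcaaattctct
Nhlh2, chr3:102009895-102010194, plus strand: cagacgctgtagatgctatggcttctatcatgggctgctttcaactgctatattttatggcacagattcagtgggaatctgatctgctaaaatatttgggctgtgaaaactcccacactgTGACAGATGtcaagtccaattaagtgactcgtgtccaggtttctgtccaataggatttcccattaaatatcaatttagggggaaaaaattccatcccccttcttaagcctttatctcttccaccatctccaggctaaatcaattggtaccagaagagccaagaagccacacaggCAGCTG
The Tdo2 window held none of these motifs, and Lhx9 held TGACAG alone. CAGATG was in the windows of Mndal, A930035F09Rik, Sval1 and Nhlh2.

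In all, 80 of 31396 promoter windows, of 78 genes of which 37 code for proteins, were overlapped by a site by at least 100 bp. By comparison, 14453 windows overlapped a bin open in all 11 hippocampus libraries. CAGATG was present in 32 of the 80 windows (40%) and in 17.2% of all windows. TGACAG was present in 26.3% and 19.1%, CAGCTG in 15% and 16.3%, TAATTA in 10% and 5.27%, TGACTCA in 6.25% and 5.26%, and CTTTGAT in 5.00% and 3.76%. TGACGTCA, the full NFI site and the GRE had no match in the 80 windows, and 1.83% of all windows held TGACGTCA, 0.0382% NFI and 0.00956% the GRE. The last of these are too rare for 80 windows to show anything. The 80 windows had a median GC content of 45.5% against 53.0% over all windows, and the part of base composition in these shares was not tested. A match is a run of letters and not evidence of binding.

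At the Tdo2 promoter the deposited peak fold over background was 12.0 and 11.6 in the saline libraries. It was 11.7, 9.24 and 8.84 at 6 h, 7.39, 10.7 and 9.02 at 12 h, and 11.9, 10.1 and 7.72 at 24 h after LPS, in the order of replicates 1, 3 and 4. The fold is the authors' own value for a peak within its library, so its order across libraries can show neither a change nor the lack of one. The median percentile of the Tdo2 peak over the 11 libraries was 93.8. The percentile is the rank of a peak by its deposited -log10 p among all peaks of its library, 100 being the strongest. No frontal cortex peak lay in the Tdo2 site or beside it, and the nearest was 627 bp away. The Lhx9 promoter had a median percentile of 75.6 and a median fold of 4.84, with a frontal cortex peak 305 bp away in an adjoining bin.

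1 microRNA of 919 hairpins in the RefSeq table, miR-6420, lay in a site, at chr17:64440001-64441000. Its mature sequence, at chr17:64440863-64440883 on the plus strand, is shown with the seed, bases 2 to 8, in capitals.
miR-6420: aCUAAUCCuauaaaaucaaac
The site had a median fold of 8.09 and a median percentile of 85.3, and no protein-coding gene was assigned to it within 100 kb.

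**Figure D1:**
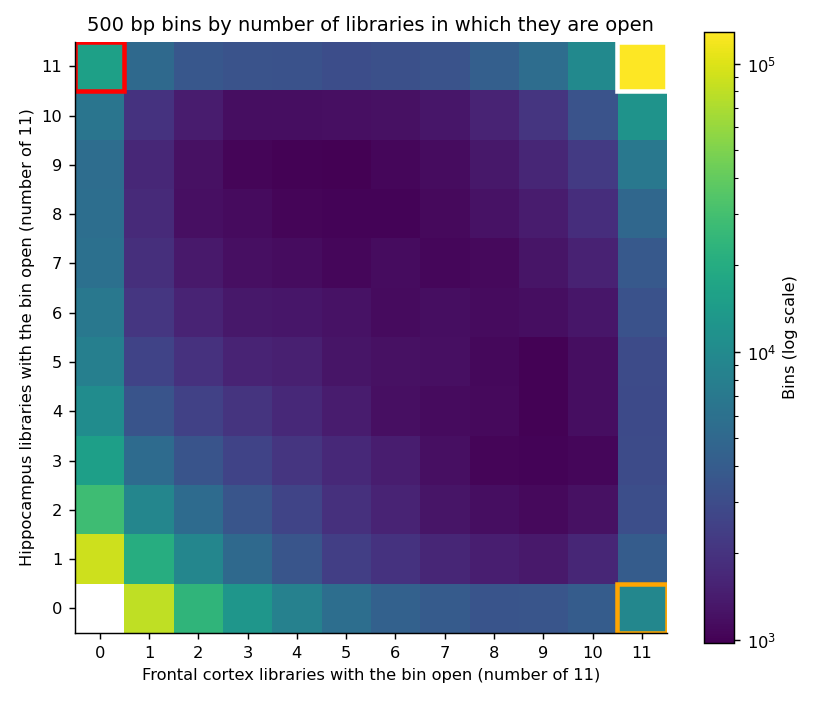
Number of 500 bp bins (colour, log scale) by the number of frontal cortex libraries (horizontal axis) and hippocampus libraries (vertical axis) in which they were open. The red square holds the 15685 bins described here, the orange square the 9353 bins open only in frontal cortex and the white square the 129065 bins open in all 22 libraries.

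The rule has sharp edges on both axes. Just outside it lay 6524 bins open in 10 hippocampus libraries and no cortex library, and 5217 open in all 11 hippocampus libraries and 1 cortex library. The converse choice, open in all 11 cortex and no hippocampus libraries, gave 9353 bins in 8535 sites. In the grid of bins by library number, the 3 marked corners hold more bins than the squares next to them. How many sites were found depended on the peaks used. Requiring an overlap of 250 bp gave 6536 bins, and the 50000 strongest peaks of each library gave 5759, of which 935 were among the 15685. With those strongest peaks the order of the tissues turned, since 5836 bins were then open only in frontal cortex.

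As a description, bins were also chosen on 10 animals and read in the animal left out. The 10 animals chose from 15983 to 18197 bins. In the hippocampus of the animal left out, 96.5% ± 2.77 of them were open (SD, n = 11), from 90.9% for LPS 6 h replicate 4 to 99.2% for LPS 12 h replicate 3. In its frontal cortex 2.82% ± 2.34 were open (SD, n = 11), from 0.738% for LPS 6 h replicate 3 to 7.01% for saline replicate 2. The tissues did not overlap in any animal. Of all bins open in any of the other 10 animals, 44.1% ± 3.61 were open in the hippocampus and 41.4% ± 3.68 in the frontal cortex of the animal left out (SD, n = 11). Those bins include many open in 1 library only, so they are not matched to the choice. The difference at the chosen bins was 93.7 percentage points, with hippocampus higher in 11 of 11 animals. The 11 values share most of the animals that chose the bins, and the tissue labels entered the choice, so they are given as a description with no p. A chosen bin fails only where the animal left out keeps it from the full set. The shares therefore restate how many bins that animal kept out.

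Libraries differed in how much they limited the set. Without the hippocampus library of LPS 6 h replicate 4, 1580 further bins would have entered, without that of saline replicate 2 1236, and without that of LPS 12 h replicate 1 1107. For the other 8 hippocampus libraries the number was 128 to 580. Among the cortex libraries saline replicate 2 kept out 1267 bins, LPS 24 h replicate 1 1032 and LPS 24 h replicate 4 956. The hippocampus libraries held 223838 to 300748 peak intervals and the cortex libraries 200695 to 274723, and these lists give no read depth.

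The sites were narrow, and most had no cortex peak in or beside them. A single bin made up 13105 of the 14384 sites (91.1%), 1259 had 2 bins, 18 had 3 and 2 had 4. Of stretches open in all 22 libraries 67.8% were a single bin. The nearest frontal cortex peak of any library lay at a median of 1588 bp. At 10535 sites (73.2%) no cortex peak touched the site and neither adjoining bin was open in cortex, and these are called isolated below. At 1788 sites (12.4%) a cortex peak reached in by 1 to 99 bp, too little to count as open. An adjoining bin was open in at least 1 cortex library at 3739 sites, and in all 11 at 779. Within the hippocampus itself an adjoining bin was open in 1 to 10 libraries at 7235 sites (50.3%) and in all 11 at 2180 (15.2%).

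Few of the strongest sites were isolated. Sites were ranked by the lowest percentile of their peak over the 11 hippocampus libraries. Of the 10 strongest 2 were isolated, of the 100 strongest 18, and of the 1000 strongest 479 (47.9%), against 73.2% of all. The strongest, at chr1:10327501-10328000 in Cpa6, a carboxypeptidase gene, had a fold of 15.4 to 18.7 with a cortex peak reaching in. Next came chr4:36435501-36436000 in Lingo2, a leucine-rich repeat membrane protein gene, with 13.2 to 18.2, also touched by a cortex peak. At such places the bin meets the rule while cortex is open in or beside it. Sites at Gabrg3, a GABA-A receptor subunit gene, and Hmcn1, which encodes the matrix protein hemicentin 1, were also among the 10 strongest and not isolated.

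The strongest isolated site was chr6:98689001-98690000, over 100 kb from any protein-coding gene. Its fold was 13.5 and 16.7 in the saline libraries, 16.8, 13.8 and 14.0 at 6 h, 13, 14.9 and 13.3 at 12 h, and 16.4, 14.1 and 12.1 at 24 h after LPS. In each library this peak was at or above the 97.8th percentile, and the nearest cortex peak was 2331 bp away. The next were chr1:113433501-113434500, chr16:62690001-62691000 at 41443 bp from the RNA methyltransferase gene Nsun3, and chr4:17785001-17786000 at 67071 bp from the matrix metalloproteinase gene Mmp16. A site at chr1:138388501-138389000, 94836 bp from the kinase gene Nek7, had a fold of 10.6 to 19.8 and lay 39771 bp from the nearest cortex peak.

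The 2 widest sites, of 4 bins, were chr14:85507001-85509000 and chr1:190306001-190308000, both over 100 kb from a protein-coding gene and both isolated. The second had a median fold of 6.57 (3.98 to 8.70) and lay 7730 bp from the nearest cortex peak. Among the 3-bin sites were one in Zbtb20, chr16:43489001-43490500, one in Hmcn1, chr1:150877501-150879000, and one 97680 bp from Klf12, a transcriptional repressor gene, at chr14:99767001-99768500.

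**Figure D2:**
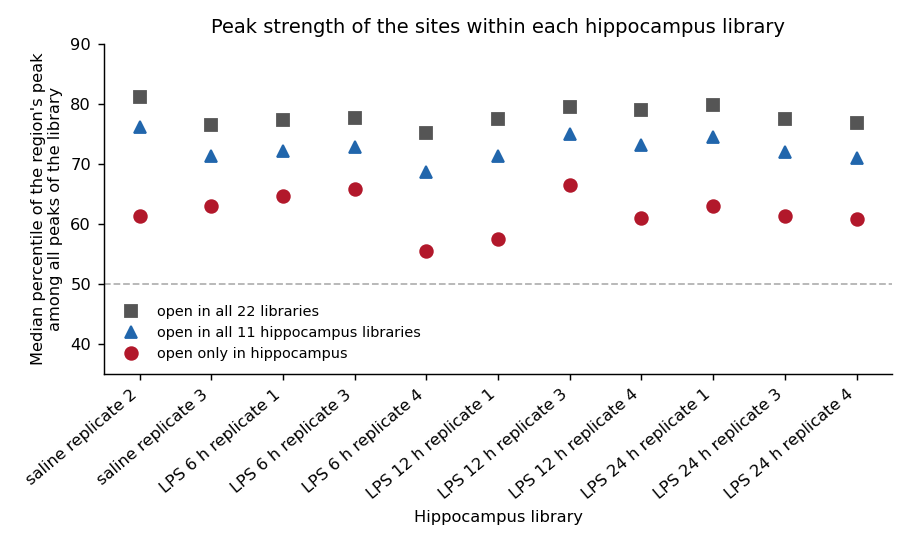
Median percentile, among all peaks of a library, of the peaks at sites open only in hippocampus (red circles), at stretches open in all 11 hippocampus libraries (blue triangles) and at stretches open in all 22 libraries (grey squares), for each hippocampus library (horizontal axis). The dashed line marks the median peak, and the red circles lie between 55.6 and 66.6, under the other symbols in each library.

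Peaks at the sites were stronger than the median peak of a library and weaker than those at shared sites. The rule that chose the sites bears on both comparisons, so they are given as a description. It asks for a peak in all 11 hippocampus libraries and leaves out every bin open in a cortex library. A single bin made up 91.1% of the sites and 67.8% of stretches open in all 22 libraries, and the part of width was not tested. The median percentile at the sites ranged from 55.6 in LPS 6 h replicate 4 to 66.6 in LPS 12 h replicate 3, and at stretches open in all 22 libraries from 75.1 to 81.2. The median fold ranged from 4.0 to 5.18 at the sites and from 4.96 to 6.51 at the shared stretches. The percentiles were lower at the sites in each of the 11 libraries. A peak of -log10 q of 2 or more was found in all 11 libraries at 11933 sites (83.0%), and of 5 or more at 6538 (45.5%).

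The rule asks for a peak in every hippocampus library, saline and LPS alike, so the share of sites with a strong peak is close to its ceiling in both and is given as a description. A -log10 q of 2 or more was reached by 97.5% and 97.3% of the sites in the saline libraries and by 97.9% ± 1.22 in the LPS libraries (SD, n = 9, 95.4% to 99.5%). The LPS range encloses both saline values. The LPS mean was higher by 0.464 percentage points. Of all peaks, 86.2% and 90.5% reached it in the saline libraries and 87.4% ± 2.01 in the LPS libraries (SD, n = 9). At a -log10 q of 5 the difference at the sites turned to -1.82 points and among the 50000 strongest peaks to -0.663.

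The sites lay away from gene starts. Within 1 kb of a RefSeq start lay 236 of 13808 sites on the chromosomes with promoter windows, or 1.71% (95% Wilson interval 1.51 to 1.94), against 14.4% of stretches open in all 22 libraries and 2.38% of the frontal cortex-only sites. The interval covers counting error only. The median distance to a start was 50510 bp, against 23554 bp for the shared stretches and 46112 bp for the cortex-only sites. Inside a protein-coding gene body lay 43.9% of the sites, against 61.2% of the shared stretches and 46.2% of the cortex-only sites. Over 100 kb from any protein-coding gene lay 27.9%, 11.8% and 26.0%. On each of these measures the sites open only in hippocampus were closer to the cortex-only sites than to the shared stretches. Of bins open in all 11 hippocampus libraries, the share open only in hippocampus was lowest on chromosome 11 (5.79%) and highest on chromosome 3 (10.8%).

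Sites were then assigned to the protein-coding gene they lay in, or to the nearest within 100 kb. This joined 10369 sites to 5269 genes, of 16700 with any bin open in all 11 hippocampus libraries, and 66 genes had 10 or more. A long gene offers more bins, so each count is given with the number of the gene's bins open in all 11 hippocampus libraries. Over all genes 6.90% of those bins were open only in hippocampus.

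Several of the 15 genes with the most sites encode proteins of neuronal adhesion and axon guidance. The 15 genes spanned 349 to 2197 kb. Macrod2, an ADP-ribose hydrolase gene (chr2:140395303-142392966), had 28 sites, 24 of them isolated, and 31 of its 157 bins (19.7%) were members. Lsamp, an adhesion molecule of limbic neurons (chr16:39984254-42181679), had 24 sites, 18 isolated, and 27 of 181 bins (14.9%). They are the longest of the 15.

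Of the guidance and adhesion genes, Tenm3, a teneurin that directs hippocampal wiring, had 18 sites (14 isolated), Dcc, the netrin receptor, 17 (13 isolated), and Sema5a, a semaphorin, 15 (11 isolated). Members were 16.4% of the bins of Tenm3, 27.9% of Dcc and 25.4% of Sema5a. Dab1, the adaptor of reelin signalling, had 20 sites in 11.7% of its bins. The alpha-catenin gene Ctnna3 had 15 sites and Lingo2 had 18, 12 of them isolated. Fhit, a nucleotide hydrolase gene, had 17, and the splicing factor gene Rbfox1 had 16, of which 8 were isolated. The share at Rbfox1, 7.63% of 236 bins, was near the 6.90% over all genes. Thsd7b, a thrombospondin-domain gene, and Egfem1 and Fam155a, whose product is a subunit of the NALCN channel, had 15 each.

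**Figure D3:**
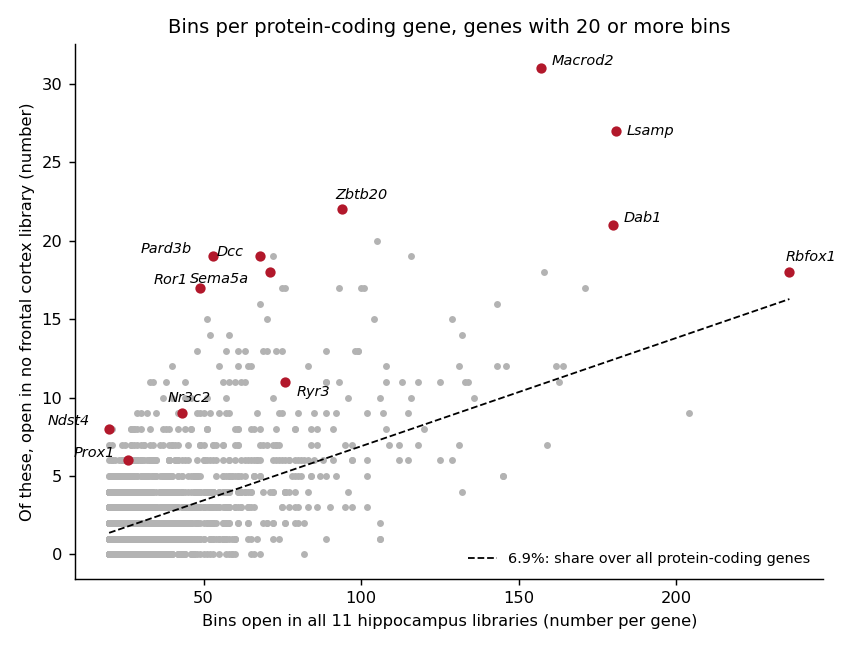
Bins open only in hippocampus (vertical axis) against all bins open in the 11 hippocampus libraries (horizontal axis) for 2059 protein-coding genes with at least 20 such bins. Red points are named genes, and the dashed line is the 6.90% share over all genes, above which Macrod2, Zbtb20, Pard3b and Ror1 lie with 31, 22, 19 and 17 bins.

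Ranked by share, other genes led. Among the 2059 genes with 20 or more bins the median share was 6.19%. Ndst4, a heparan sulfate N-deacetylase/N-sulfotransferase gene, had 8 of 20 bins (40%), and its 8 sites were all isolated and all within the gene body. At its strongest site, chr3:125593001-125593500, the fold was 8.78 and 6.11 under saline, 8.09, 6.52 and 4.67 at 6 h, 4.46, 8.23 and 9.05 at 12 h, and 7.66, 6.80 and 5.75 at 24 h. Each of these is a peak in 1 library, and the 4 groups overlap.

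Zfhx4, a zinc finger homeobox gene, had 8 of 21 bins, Pard3b, a cell polarity gene, 19 of 53 (35.8%), Npr3, the natriuretic peptide clearance receptor, 7 of 20, and Ror1, a Wnt5a receptor (chr4:100095791-100444806), 17 of 49 (34.7%). Ror1, Zfhx4 and Ndst4 had no bin open only in frontal cortex, Pard3b and Npr3 had 4 each. 10 of the 15 sites in Ror1 and 10 of 13 in Pard3b were isolated.

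Zbtb20, a zinc finger repressor required for hippocampal CA and dentate identity (chr16:42875689-43634392), had 19 sites, all in its gene body, in 22 of 94 bins (23.4%), against 2 bins open only in cortex. Of the 19 sites 11 were isolated. The 3-bin site had a fold of 8.22 and 7.71 in the saline libraries, 7.72, 6.33 and 5.50 at 6 h, 5.52, 7.98 and 7.56 at 12 h, and 10, 7.24 and 6.75 at 24 h after LPS. The values of the 4 groups overlap. A second isolated site, chr16:43525501-43526000, had a fold of 5.66 to 7.67. The weakest of the 19, chr16:43098001-43098500, had a median fold of 2.42 and a median percentile of 20.0. The 1 Mb window from chr16:43000001 held 30 bins open only in hippocampus, the most of any window, against a median of 6 over 2375 windows.

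**Figure D4:**
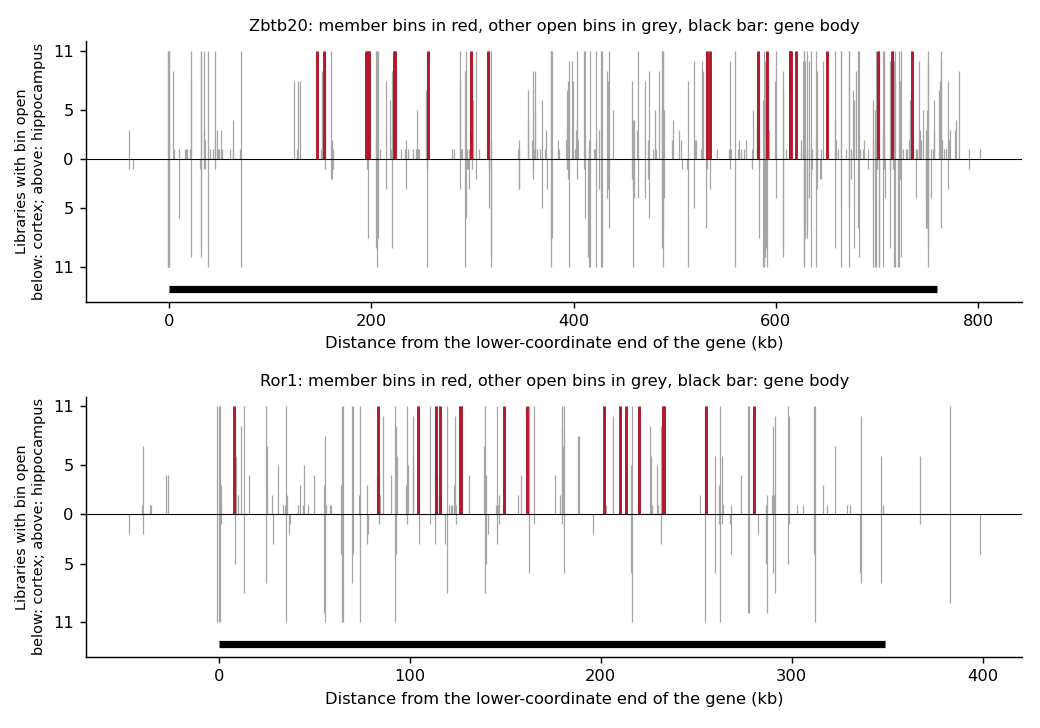
Open bins along Zbtb20 (top) and Ror1 (bottom) by distance from the lower-coordinate end of the gene in kb (horizontal axis), with the number of hippocampus libraries drawn upwards and of frontal cortex libraries downwards. Red lines, the 22 bins of Zbtb20 and 17 of Ror1 open only in hippocampus, lie among grey lines that are open in both tissues or in some libraries only.

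Among genes of dentate granule cells, 19 of 24 had a site, 70 sites in all with 46 isolated. Members were 10.8% of the bins of the list, against 6.90% over all genes. Prox1, the homeobox factor that sets granule cell identity (chr1:190118035-190170827), had 6 sites in 6 of 26 bins and no bin open only in cortex. Of the 6 sites, 2 were isolated and 2 lay in the gene body. The strongest Prox1 site by percentile, chr1:190092501-190093000, lay 25034 bp from the gene, and a cortex peak touched it. The fold there was 8.94 and 8.88 under saline, 9.43, 7.76 and 8.89 at 6 h, 8.20, 8.24 and 8.37 at 12 h, and 9.51, 8.11 and 7.28 at 24 h. Both saline values lie within the range of the LPS libraries. Dsp, the desmoplakin gene and a granule cell marker, had 5 of its 9 bins (55.6%). Of its 5 sites 3 were isolated and 2 lay in the gene body. At chr13:38140501-38141000, an isolated site 10293 bp from Dsp, the fold was 10.1 and 8.26 under saline, 8.71, 7.91 and 5.41 at 6 h, 5.23, 10.1 and 6.44 at 12 h, and 5.79, 7.88 and 5.30 at 24 h. The ranges of the saline and LPS libraries overlap. Dock10 had 10 sites, 7 of them isolated and 6 in the gene body. Sema5a, which is also on the adhesion and guidance list, had the most, 15 sites in 18 of the 81 member bins, with 7 bins open only in cortex. Slc4a4 had 6 sites, Tiam1 5, and Stxbp6 and Glis3 4 each. The remaining genes of the list had few or none. Plk5, Trpc6, Fam163b, Pitpnc1 and Il16 had no site, and Calb1 had 1 of 8 bins, which was not isolated. At Pdzd2, Bcl11b and Rfx3 the share was 1.75%, 2.13% and 2.22%.

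Of 27 CA pyramidal cell genes 17 had a site, with 61 sites and 9% of their bins. Ryr3, an intracellular calcium channel, had 11 sites, 8 isolated, and no bin open only in cortex. Galntl6 had 13 sites but 9 bins open only in cortex. Wfs1, a CA1 marker, had none of 7. Of 30 hippocampal transcription factor genes 22 had a site, 87 in all with 47 isolated (54.0%), and 10.3% of their bins were members. Besides Zbtb20 these included Foxp1 with 11, Nr3c2 with 9, Lhx9 with 3 and Tox3 with 4. Emx1, Emx2, Lef1, Neurod2, Nr2f1, Klf9, Id4 and Bcl11a had none. Of the 100 member bins of the list, Zbtb20 held 22, Foxp1 13 and Nr3c2 9. The median share per gene was 6.39% for this list, 5.56% for CA genes and 11.5% for dentate genes. It was 6.19% over all genes with 20 or more bins and 0% over all genes with any bin. The lists had no lower limit on bins and were matched to neither. For subiculum and entorhinal genes the share was 12.8%, 22 of 172 bins, of which Ndst4 held 8. The adhesion and guidance list had a site at 42 of 44 genes, 316 sites and 11.6% of bins. It held 351 of the 11279 member bins at genes (3.11%) and 3.63% of the 6728 bins at genes open only in frontal cortex, so its share was no larger on the hippocampus side. For dentate genes these shares were 0.718% and 0.49%, for hippocampal transcription factor genes 0.887% and 0.52%, and for CA genes 0.559% and 0.788%. The hippocampus side was also larger for endothelial and mural (0.231% and 0.0743%), inhibitory neuron (0.355% and 0.178%) and LPS response genes (0.0975% and 0.0297%). The same held for microglia and leukocyte, choroid plexus and ependymal, and adult neurogenesis genes. On the other lists, CA and adhesion genes among them, the cortex side was larger. These lists were described by counts alone, since they were written with earlier results of these data known.

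The study's animals all received corticosterone, so the glucocorticoid and stress genes were counted separately: 7 of 15 had a site and 7.00% of their bins were members, near the 6.90% over all genes. Nr3c2, the mineralocorticoid receptor (9 sites in 43 bins, 20.9%, 6 isolated), held 9 of the 20 sites of the list and had no bin open only in cortex. Its isolated site at chr8:77096501-77097000 had a fold of 6.37 and 4.87 under saline and of 4.13 to 7.20 after LPS. Nr3c1, the glucocorticoid receptor, had 2 sites, neither isolated, Bdnf, a neurotrophin, 3 and Zbtb16, a glucocorticoid-induced repressor, 3. Among 22 LPS response genes 6 had a site, with 7.59% of the bins, and Nfkb1, an NF-kB subunit, had 4 sites and Ly96, a cofactor of the LPS receptor, 2. Of 21 glutamate receptor genes 15 had a site, with 6.66% of the bins. Gria1, an AMPA receptor subunit gene, had 7 sites, 6 of them isolated.

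Markers of other cells and neighbouring regions also had sites. Endothelial and mural genes had members in 12.6% of 206 bins (12 of 20 genes), with 5 sites at Mecom and 3 each at Ebf1 and Rgs5, a pericyte marker. The endothelial genes Pecam1, Cldn5 and Cdh5 and the pericyte receptor gene Pdgfrb had none. For inhibitory neuron genes it was 12.2% of 327 bins (13 of 25), and Adarb2, a gene of caudally derived interneurons, held 13 of the 40 member bins. Among the genes that mark these neurons or their classes, Gad1, Slc32a1, Pvalb, Sst, Vip and Npy had none. Gad2, Lhx6, Dlx5, Lamp5, Cck and Calb2 had 1 site each. Striatal neuron genes had 12.0% (7 of 13, Foxp1 with 11 and Drd2 with 2), thalamic genes 11.2% (7 of 12) and cortical layer genes 9.04% (11 of 20, Hs3st4 with 8 and Thsd7a with 6). Rora, on the thalamic list, had 7 sites against 18 bins open only in cortex. Choroid plexus and ependymal genes had 8.11% of 111 bins (6 of 16 genes). Ttr, the defining choroid plexus gene, had none of 3 bins, Foxj1 none of 5, and Otx2 had 2 of 4. Astrocyte genes had 7.06%, microglia and leukocyte genes 6.19%, adult neurogenesis genes 6.12% and oligodendrocyte genes 5.45%. The part of these cells and regions, or of the dissection, in the sites was not tested.

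The authors' deposited tables of differential regions, made by csaw for each tissue and time against the saline libraries of that tissue, list regions that were higher or lower after LPS. Their values come from the libraries that chose the sites, so the overlap is a description. In the authors' deposited table for hippocampus at 12 h, lower regions held 175 of the 15685 member bins (1.12%, in 163 sites), against 0.404% of all bins open in the 11 hippocampus libraries. Of those 767 bins, 22.8% were members. Higher regions in the authors' deposited table at 12 h held 61 member bins (0.389%, in 57 sites), against 0.256%. Of the 189863 background bins 129065 were open in all 22 libraries. At 12 h the authors' deposited table placed 0.222% of those in lower and 0.209% in higher regions. Background bins open in only some cortex libraries were not counted apart, so these shares are not like for like. In the authors' deposited table for hippocampus at 24 h, 2 member bins were higher (background 0.0179%) and 3 lower (background 0.0137%). At 6 h the authors' deposited table for hippocampus placed none of the sites in a higher (background 0.0%) or lower region (background 0.00474%). These tables hold only called regions, so smaller changes are not seen in them.

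**Figure D5:**
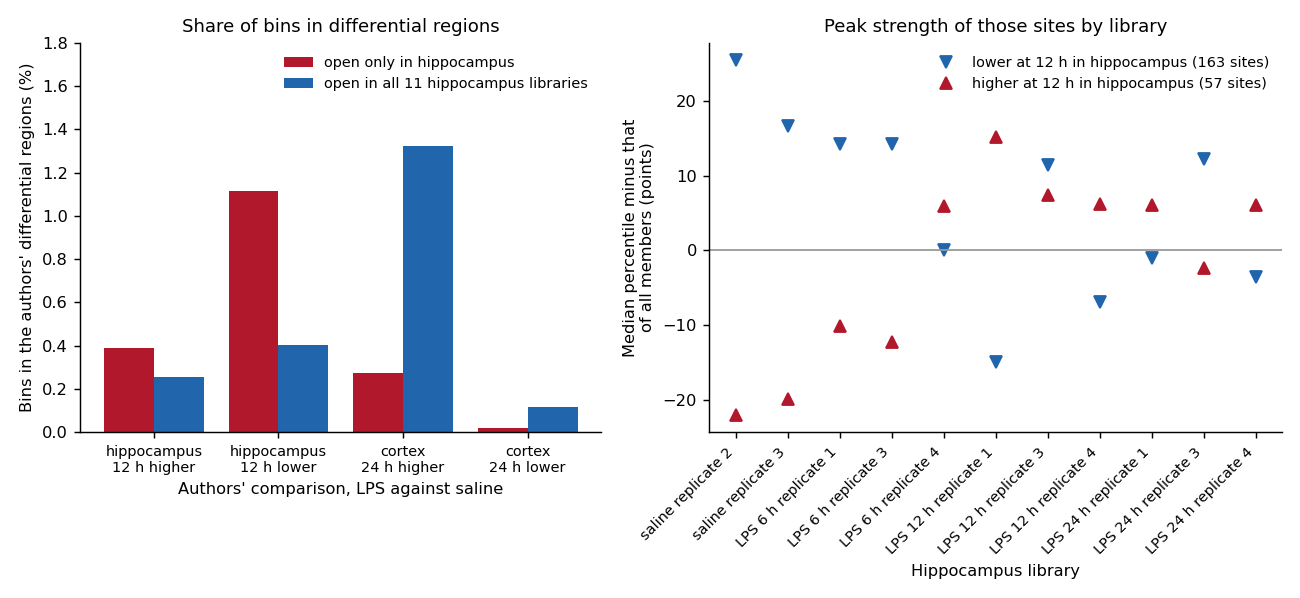
Left, percent of bins open only in hippocampus (red) and of all bins open in the 11 hippocampus libraries (blue) that lay in the authors' differential regions. Right, median percentile of the sites lower (blue, 163 sites) or higher (red, 57 sites) in hippocampus at 12 h, minus the median over all members in the same library; LPS 12 h replicate 3 sits at 11.3 for the lower sites, above 0, and LPS 12 h replicate 1 at -14.9.

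The lower sites included chr15:39310501-39311000 in Rims2, which encodes a scaffold of the presynaptic active zone, with an FDR of 0.00146 in the authors' deposited table. There the peak fold was 16.0 and 10.1 under saline, 7.57, 9.70 and 4.11 at 6 h, 2.62, 7.77 and 5.48 at 12 h, and 7.66, 6.64 and 3.54 at 24 h. Sites in Ano2, a chloride channel gene (FDR 0.00254), and Cldn10, a claudin gene (FDR 0.00269), and the site chr15:51638501-51639000 (FDR 0.00138) were also lower in the authors' deposited table. At the Cldn10 site the fold was 8.72 and 6.47 under saline and 2.46, 7.16 and 2.19 at 12 h. At the Rims2 site the percentile of the peak within its library was 19.2, 82.3 and 69.8 in the 12 h libraries, and at the Cldn10 site it was 13.8, 78.9 and 6.09.

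Replicate 3 differed from the other 12 h libraries over the whole group. The 163 lower sites had a median percentile 25.4 and 16.6 points above that of all members in the saline libraries, and since the authors called these sites from the same libraries, high saline values restate the calls. On the same difference the 12 h libraries were at -14.9 points in replicate 1, 11.3 in replicate 3 and -6.94 in replicate 4. The 6 h libraries were at 14.2 and 14.3 in replicates 1 and 3 and near 0 (0.02) in replicate 4, and the 24 h libraries at -0.98, 12.2 and -3.60. Replicate 3 was thus above all members at 12 h, unlike the other two. LPS 6 h replicate 4 and LPS 12 h replicate 1 had the lowest percentiles over all members, 55.6 and 57.6. The part of single libraries in the authors' calls was not tested.

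The higher sites included chr15:53474501-53475000 in Samd12 (FDR 0.00451), chr16:97392001-97392500 in Bace2, a beta-secretase homologue (FDR 0.00482), and chr8:93520501-93521000 in the carboxylesterase gene Ces5a (FDR 0.00789), in the authors' deposited table. At the Bace2 site the fold was 4.63 and 4.32 under saline, 5.98, 3.48 and 5.83 at 6 h, 7.93, 7.46 and 6.74 at 12 h, and 6.72, 5.22 and 6.04 at 24 h. These sites were called by the authors from these libraries, so high 12 h and low saline values restate the calls. Over the 57 higher sites all 3 libraries at 12 h were above the median of all members, by 15.1, 7.34 and 6.16 points, and both saline libraries were below it, at -21.9 and -19.8. Of the lower sites 132 were isolated and of the higher 42.

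In frontal cortex, where the sites had no open bin, the authors' deposited table at 24 h placed 43 member bins (0.274%) in higher regions, against 1.32% of the bins open in the 11 hippocampus libraries. The rule kept out every bin open in a cortex library, those at 24 h included. Of the 189863 background bins 129065 were open in all 22 libraries, so shares in cortex regions, here and below, are not like for like. Of the 41 sites concerned 19 were isolated, and the others had a cortex peak in or beside them. The site with the lowest FDR in the authors' deposited table, 0.000157, was chr6:13021001-13021500, 48258 bp from Tmem106b, a lysosomal membrane protein gene. Another lay 4245 bp from Mgst1, a microsomal glutathione transferase gene (FDR 0.00111 in the authors' deposited table). Lower regions at 24 h in the authors' deposited table held 3 member bins (background 0.115%), near Camk1g, Tenm4 and Galnt2. At 6 h none of the sites lay in a higher (background 0.0521%) or lower region (background 0.0274%) of the authors' deposited table for cortex, nor at 12 h (backgrounds 0.00158% and 0.01%).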

How the data were processed

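Peak lists of 22 OMNI-ATAC-seq libraries (paired-end reads of 50 bp) and 6 tables of differential regions were used. Per the submitters' processing notes, MACS2 2.2.7.1 was among the tools, with Bowtie2 2.4.4, Trim Galore 0.6.7 and FastQC 0.11.9, on GRCm38 (mm10). The sources used here do not say whether reads were shifted for the transposase. Peaks were deposited per library. Each deposited peak carries the authors' score, its fold (a ratio to background), and its p and q values as -log10, printed by library as a description and ranked only within a library. Intervals with several summits were counted once, with their strongest values. The authors' csaw tables give each region's direction and a number taken to be its FDR on a scale of -10 log10. Peak lists carry no depth, so no limit that needs it is given.

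Bins were counted in Python 3.11.15 with numpy 2.4.6 and pandas 2.3.3, and figures drawn with matplotlib 3.10.9. On simulated peaks, 3000 of 3000 planted bins were found, with 0 others. The planned permutation tests of the left-out animals and of strong peaks are given as descriptions, since the choice of sites enters both. Animals pair the tissues, as the labels name the same animal for both. Genes, promoters and microRNAs came from RefSeq tables of GRCm38.p6. Distances to a start replaced distances to a gene end, since the promoter table gives the strand, and chromosome 18 had no promoter windows. 8 of 341 list genes had no match on chromosomes 1 to 19. Peaks outside promoters were given by position only.

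Named genes are those with the most sites, up to 4 genes per list, the 10 strongest and widest sites, promoters by strength and up to 5 sites per differential table and direction, and a selection is printed. The genes ranked by share, the isolated sites and single list genes were picked after their values were seen. The members, lists and rules were chosen with earlier results of these data known.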

Additional observations from a re-analysis of the deposited data

How the results depend on the processing

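The 15685 bins open only in hippocampus became 18049 with an overlap of 50 bp, 6536 with 250 bp, 15640 on a grid shifted by 250 bp, 15171 and 12964 with peaks of -log10 q of 2 and 5 or more, and 5759 with the 50000 strongest peaks per library. Of the 15685 bins, 83.9% remained with the q of 2, 48.0% with the q of 5 and 21.4% with 250 bp. Leaving out both libraries of an animal gave 15983 to 18197 bins. As alternatives added after the data were seen, 13857 of the 15685 bins had no cortex peak overlapping by even 1 bp. Counted apart over the same 15685 bins, 11930 had no adjoining bin open in cortex. With the animal as the replicate block, the left-out difference stays at 93.7 points by arithmetic, so it shows nothing about the processing. The difference in strong peaks between LPS and saline was 0.464 points, turned to -1.82 with a -log10 q of 5 and to -0.663 among the 50000 strongest peaks, and was 0.254 to 0.768 when any 1 library was left out. Counting genes of every biotype put 52.4% of the sites in a gene body, and 40.5% of isolated sites lay in a protein-coding one. Within 5 kb of a start lay 7.68%. Restricted to gene bodies, 3334 genes had a site. With 0.5 of a differential region required, the cortex 24 h higher regions held 23 member bins and the hippocampus 12 h lower regions 150. Of 24 named genes, the number of sites moved by over 1.5 times at 4 with gene bodies only and at 7 with isolated sites only. Prox1 was among them under either setting, with 2 in place of 6. The causes were not tested.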

Other observations

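Chromosome X, which the rule leaves out, had 438 bins in 412 stretches that were open in all 11 hippocampus and no frontal cortex libraries. They were 11.2% of its 3895 bins open in all 11 hippocampus libraries, and 277 bins were open only in frontal cortex.

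Sites also gathered in windows of 1 Mb outside the leading genes. The window from chr11:66000001 held 25 bins open only in hippocampus among 102 open in all 11 hippocampus libraries, with Shisa6, an AMPA receptor auxiliary subunit gene, and Dnah9, a ciliary dynein gene. The window from chr4:52000001 held 23 of 69 (33.3%). That from chr4:95000001, which holds Fggy, Hook1 and Jun, an immediate early gene, had 23 of 105. The window from chr1:40000001, with Slc9a4, Slc9a2 and the interleukin 1 receptor genes Il1r1 and Il1r2, held 22 of 100. That from chr14:102000001, with Kctd12, a GABA-B receptor auxiliary subunit gene, held 22 of 85. A gene is named because it lies in the window, which does not assign the window's sites to it. At Dnah9 itself 12 of 40 bins were members and no bin was open only in frontal cortex. These windows were ranked by the same counts that chose the sites, so they are a description.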
